A study of Mus musculus with 2 samples.

Results

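The centromere-proximal end of the mouse autosomes was described as 100 kb bins of the first 5 Mb of assembled sequence, from position 3000001 to 8000000 on each of chromosomes 1 to 19 (build mm9). A bin was kept where the input library had at least 50 fragment midpoints in it. This left 864 of the 950 bins in that span, out of 23419 autosomal bins that met the same minimum, and the other 22555 are the rest of the autosomes. The values come from kidney DNA of male C57BL/6 mice aged 6 weeks. The hMeDIP library was enriched with an antibody against 5-hydroxymethylcytosine (5hmC) and held 11424027 fragments, and the input library was made without antibody and held 8316507. The labels do not give the number of animals, and with 1 library per group no value has a replicate error. The intervals given are 95% intervals that cover counting error only. Sequenced reads that carry no molecular identifier need not stem from separate molecules. No test between conditions was possible.

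Mouse autosomes carry the centromere at one end, the end where coordinates begin. The centromere and the blocks of satellite repeat beside it are not part of the assembled sequence, and the assembly starts beyond them. Pericentromeric satellite DNA is packed as constitutive heterochromatin, rich in 5-methylcytosine. 5hmC is made from 5-methylcytosine by TET enzymes and in adult tissues is known mostly from gene bodies and enhancers. The bins described here are the assembled sequence nearest to those repeats, and the satellite arrays themselves were not analysed here. Whether the distance to the centromere goes with the 5hmC signal is the comparison made below.

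For every region, the percentage of hMeDIP fragments that fell in it was divided by the corresponding percentage of input fragments, so that 1 stands for the average of the whole genome in these libraries. Most values are given as the log2 of that ratio. A bin was called high or low where its log2 ratio was beyond 0.5 in size and its interval excluded 0.

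The first 5 Mb of the autosomes together carried somewhat less 5hmC signal than the rest. They held 351232 hMeDIP against 283308 input fragments, for a ratio of 0.903 (0.898 to 0.907), against 1.018 (1.017 to 1.019) in the rest of the autosomes. The median bin stood at a log2 ratio of -0.61, with quartiles of -1.43 and 0.20, against -0.41 in the rest, with quartiles of -1.40 and 0.44. The distributions overlapped widely: the 5th and 95th percentiles were -1.99 and 1.19 in the first 5 Mb and -2.03 and 1.33 in the rest. The SD over bins was 1.01 in the first 5 Mb and 1.09 in the rest.

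Of the 864 bins, 471 (54.5%) were low, 153 (17.7%) high and 240 neither. Over all autosomal bins 47.9% were low and 22.9% high, so both shares lay close to that background, with low bins somewhat more frequent and high bins somewhat less. High bins made up 24.5% of the calls in the first 5 Mb. When the libraries were scaled to their fragments outside peaks they made up 39.4%, with 239 high and 368 low bins, and the corresponding share over all autosomal bins was 48.4%. Centred on the median autosomal bin, the first 5 Mb had 246 high and 366 low bins, or 40.2% high among the calls, against 49.1% over all autosomal bins.

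The chromosomes differed widely in this stretch. Chromosome 3 had the lowest first 5 Mb, where 6109 hMeDIP stood against 13001 input fragments for a ratio of 0.342 (0.332 to 0.353), against 0.861 in the rest of the chromosome. Chromosome 1 followed with 0.399 (0.388 to 0.411), against 0.896 in its rest. At the other end, chromosome 19 had 40661 hMeDIP against 14852 input fragments, and its ratio was 1.99 (1.956 to 2.031), against 1.18 in its rest. The first 5 Mb of the 18 chromosomes with values thus ran from -1.55 to 0.99 on the log2 scale with an SD of 0.64. The rests of those chromosomes ran from -0.22 to 0.31 with an SD of 0.14, over a far longer span each.

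**Figure D1:**
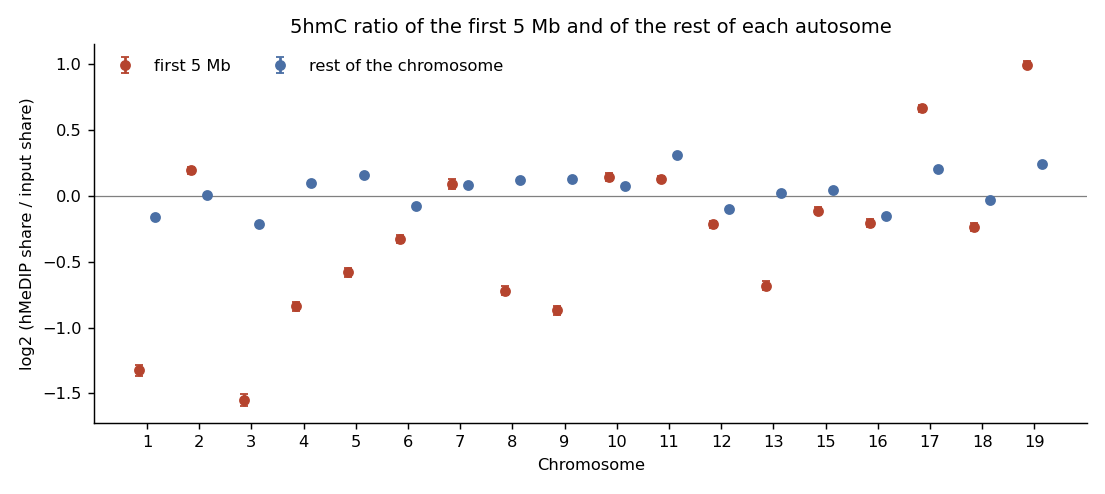
log2 ratio of hMeDIP to input share (y axis) of the first 5 Mb (red) and of the rest of the chromosome (blue) for the 18 autosomes with usable bins, with 95% counting intervals. The first 5 Mb scatter from -1.55 on chromosome 3 to 0.99 on chromosome 19, while the rests stay between -0.22 and 0.31.

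Set against the rest of its own chromosome, the first 5 Mb was lower on 13 of 18 chromosomes, and the counting interval of the difference lay below 0 on all 13. It lay above 0 on 4 chromosomes (2, 10, 17 and 19) and spanned 0 on chromosome 7. The same comparison was made for every 5 Mb window along these chromosomes, and 54.0% of 452 windows lay below the other bins of their chromosome. The median difference over the 18 chromosomes was -0.19 on the log2 scale, with a lowest value of -1.33 and a highest of 0.75. For the other 434 windows the median was -0.06, from -1.99 to 1.29. Every first 5 Mb fell within the range of the other windows.

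The direction depended on the summary used. When each chromosome was summarised by its median bin in place of its summed fragments, the first 5 Mb was lower on 7 of 18 chromosomes, and the median difference was 0.029. The chromosomes that turned were 6, 11, 12, 15, 16 and 18, all with summed differences of at most 0.25 in size. Without the fragments in peaks, chromosomes 15 and 16 turned, 11 of 18 chromosomes were lower, and the median difference was -0.066.

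Differences beyond 0.5 on the log2 scale were seen on 8 chromosomes, 7 lower and 1 higher. Among all 452 windows, 28.3% lay lower than their rest by more than 0.5 and 17.5% higher. The 7 chromosomes were 3 with a difference of -1.33 (-1.38 to -1.29), 1 with -1.17 (-1.21 to -1.13), 9 with -0.996 (-1.03 to -0.96), 4 with -0.93 (-0.97 to -0.90), 8 with -0.84 (-0.87 to -0.80), 5 with -0.74 (-0.78 to -0.71) and 13 with -0.70 (-0.74 to -0.67). Weighted by reads the difference of chromosome 9 was -0.096, no longer beyond 0.5, and without the fragments in peaks that of chromosome 5 was -0.48. By the median bin these 7 stayed lower, with differences from -1.27 on chromosome 9 to -0.46 on chromosome 5. The chromosome with a higher first 5 Mb was 19, at 0.75 (0.73 to 0.78), and chromosome 17 followed at 0.46 (0.43 to 0.49).

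Ranked among the 5 Mb windows of its own chromosome, the first one ranked 2 from the bottom of 24 on chromosome 9, 3 of 31 on chromosome 3 and 4 of 39 on chromosome 1. On chromosome 19 it ranked 11 of 12. On 7 chromosomes it lay in the lower tertile of windows, on 8 in the middle one and on 3 in the upper one. Across the 18 chromosomes the level of the first 5 Mb was loosely related to that of the rest (Pearson's r 0.57, Spearman's rho 0.41), as a description over chromosomes that share both libraries.

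The opposite chromosome end gave another point of comparison. On 12 of 18 chromosomes the first 5 Mb lay below the last 5 Mb, with a median difference of -0.51. The 932 usable bins of the last 5 Mb of all autosomes had a ratio of 1.26 (1.251 to 1.262), against 0.903 in the first 5 Mb. The widest gaps downwards were -1.70 on chromosome 4 and -1.53 on chromosome 8. Chromosomes 17 and 18 ran the other way, with a first 5 Mb 2.42 and 1.55 above their last 5 Mb. The levels of both ends were close to unrelated over the 18 chromosomes (Pearson's r 0.029, Spearman's rho 0.042).

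Gene order gives a sense of what sequence lies there. The reference annotation at hand is RefSeq on GRCm38, another build than that of the files, so only the order of genes was taken from it and no value was assigned to a gene. From the centromeric end, chromosome 1 begins with the protein-coding genes Xkr4, Rp1, a photoreceptor gene, and Sox17, an endoderm transcription factor. Chromosome 3 begins with Hnf4g, a nuclear receptor gene, Zfhx4 and Pex2, which serves peroxisome assembly. Chromosome 19 begins with Ighmbp2, the mitochondrial ribosomal protein gene Mrpl21 and Cpt1a, which encodes the carnitine palmitoyltransferase that admits fatty acids to mitochondria.

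Within a chromosome this stretch was seldom of one kind. The map of bins shows chromosomes that stayed low or high throughout and others that switched. On chromosome 3, 49 of 50 bins were low and 0 were high, against 56.8% low and 16.1% high in its rest. Over all autosomal bins these shares were 47.9% and 22.9%. The 5 successive Mb of chromosome 3 stood at -1.60, -1.81, -1.67, -1.62 and -1.17. On chromosome 19, 33 of 47 bins were high and 3 low, against 30.7% high and 39.6% low in its rest. The 5 Mb of chromosome 19 stood at 0.91, 0.79, 1.10, 1.12 and 1.05. That range of 0.33 over the 5 Mb was the smallest of the 18 chromosomes, whose median range was 1.31. The widest, 2.52, was on chromosome 12.

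**Figure D2:**
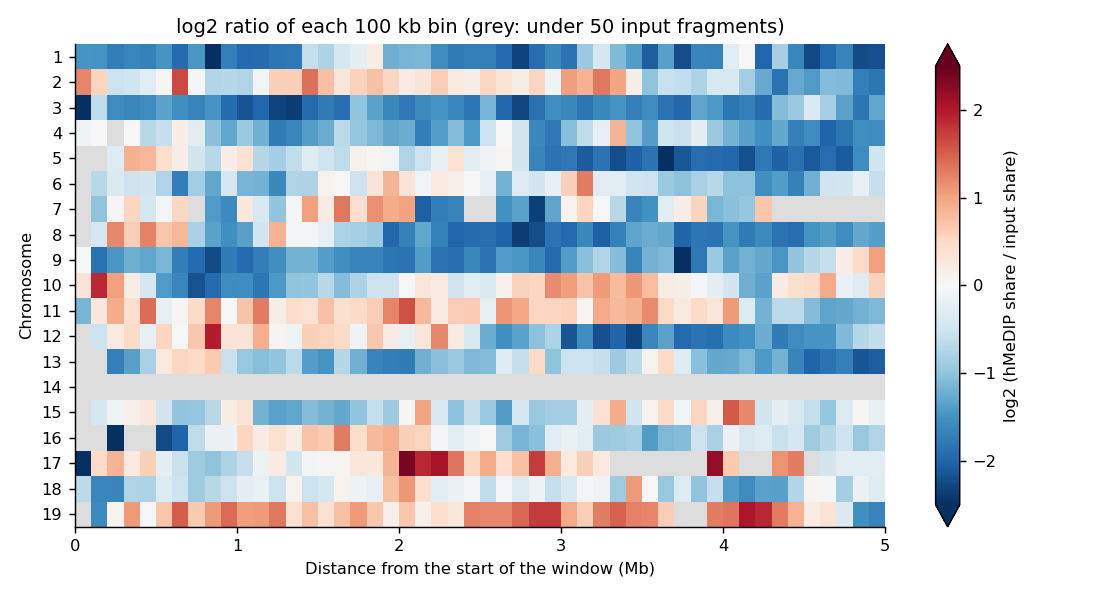
log2 ratio of every 100 kb bin (colour) by chromosome (rows) and distance from the start of the first 5 Mb (x axis, Mb), with bins under the input minimum in grey. Chromosomes 1, 3 and 9 are blue (low) nearly throughout, chromosome 19 is red (high), chromosomes 5, 8 and 12 turn from light or red to blue, and chromosome 14 is grey throughout.

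Several chromosomes switched from near or above the genome average to a long low stretch. Chromosome 8 stood at 0.54 in its first Mb and -1.88 in the third, and was low without a break in the 34 bins from 4600001 to 8000000, at -1.62 (-1.67 to -1.57) with 6 peaks. Chromosome 12 stood at 0.64 in its first Mb and -1.88 in the fourth, and its 25 bins from 5500001 to 8000000 were all low, at -1.43 (-1.49 to -1.38). Chromosome 5 was low in the 22 bins from 5800001 to 8000000, at -1.82 (-1.89 to -1.75), with 1 peak. Its 5 bins before position 5800000 averaged -0.08 ± 0.31 and the 5 after it -1.84 ± 0.15 (SD over 5 neighbouring bins, at an edge chosen as the largest step on the chromosome).

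In all, 13 runs of low bins reached 1 Mb within the first 5 Mb and held 286 bins, against 1 run of high bins, which held 13. Low bins were also the more frequent call over all autosomal bins, at 47.9% against 22.9% high. Runs were counted in this span only, so whether they are more frequent here than elsewhere was not tested. The longest low runs were 46 bins on chromosome 9 from 3100001 to 7700000, at -1.37 (-1.42 to -1.33), and 45 bins on chromosome 3 from 3000001 to 7500000, at -1.64 (-1.69 to -1.59). The high run lay on chromosome 19 from 5400001 to 6700000, at 1.28 (1.23 to 1.33), with 195 peaks. A run that reaches 8000000 was ended there by the limit of the span.

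On chromosome 17, which had the second highest first 5 Mb, the signal was concentrated in its middle. The first Mb stood at -0.18, the second at 0.11, the third at 1.46, the fourth at 1.07 and the fifth at 0.48. The 7 bins from 4900001 to 5600000 were all high, at 1.58 (1.52 to 1.64), and held 144 of the 302 peaks in the usable bins. Of its 50 bins 9 were under the input minimum, all of them in the fourth Mb or the fifth.

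With distance from the start of the window there was no steady rise or fall. All autosomes together, the 5 successive Mb had log2 ratios of -0.14, -0.02, 0.02, -0.18 and -0.50, and median bins of -0.51, -0.43, -0.41, -0.70 and -1.12. Of the 58123 input fragments summed in the first Mb, 8342 lay in 1 bin of chromosome 11, which itself stood at -1.16. Low bins numbered 82 of 164 in the first Mb and made up 48.3%, 47.2%, 57.6% and 70.0% of the following steps, against 47.9% of all autosomal bins. By its share of low bins the Mb next to the centromere was thus close to the autosomal background. Its high bins made up 18.3%, against 22.9% over all autosomal bins, and it held 30.7 peaks per Mb, against 39.4. It lay below the rest of its own chromosome on 11 of 18, with a median difference of -0.32. The fifth Mb had the lowest ratio of the 5. Spearman's rho between log2 ratio and distance was -0.16 over the 864 bins, a description over neighbouring bins that are not independent.

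The first Mb stood above the fifth by 0.36 (0.34 to 0.38). That difference was 0.57 when positions were weighted by their reads, and 0.61 between the median bins. It came from a part of the chromosomes: the first Mb was higher on 9 of 18, and on 6 of them by more than 1. These 6 were chromosomes 8 (2.10), 5 (1.92), 12 (1.89), 13 (1.72), 2 (1.51) and 4 (1.07). By summed fragments no difference in the other direction exceeded 1, the largest being that of chromosome 17, at -0.66. Piled-up fragments at chromosome starts enter these sums. On chromosome 9, 2960 of 3842 hMeDIP and 2138 of 4046 input fragments of the first Mb lay in its first 40 kb. The median bin of that Mb was -1.59, against a summed -0.53, and -0.86 against -0.28 at positions 7 to 8 Mb. On chromosome 11 the median bin was 0.34, against a summed -0.44, and -1.10 against -0.48 at those positions. These counts were not repeated without the piled-up fragments. Which of the 5 Mb was lowest varied as well, with 4, 4, 2, 2 and 6 chromosomes having their minimum in the first to the fifth Mb.

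The low signal was deeper further along the chromosome arm than beside the centromere. In successive windows of 5 Mb, from 0 to 5 up to 35 to 40 Mb from position 3000000, the ratios were 0.903, 0.874, 0.685, 0.787, 0.954, 1.08, 1.05 and 0.827. Low bins made up 54.5% of the first 5 Mb and 68.7% of the bins at 10 to 15 Mb. The first 5 Mb stood above the bins at 10 to 15 Mb by 0.40 (0.39 to 0.41) on the log2 scale, a comparison chosen after the distance profile was seen. It was higher there on 12 of 18 chromosomes, by up to 1.43 on chromosome 15, and lower by up to -0.88 on chromosome 1.

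**Figure D3:**
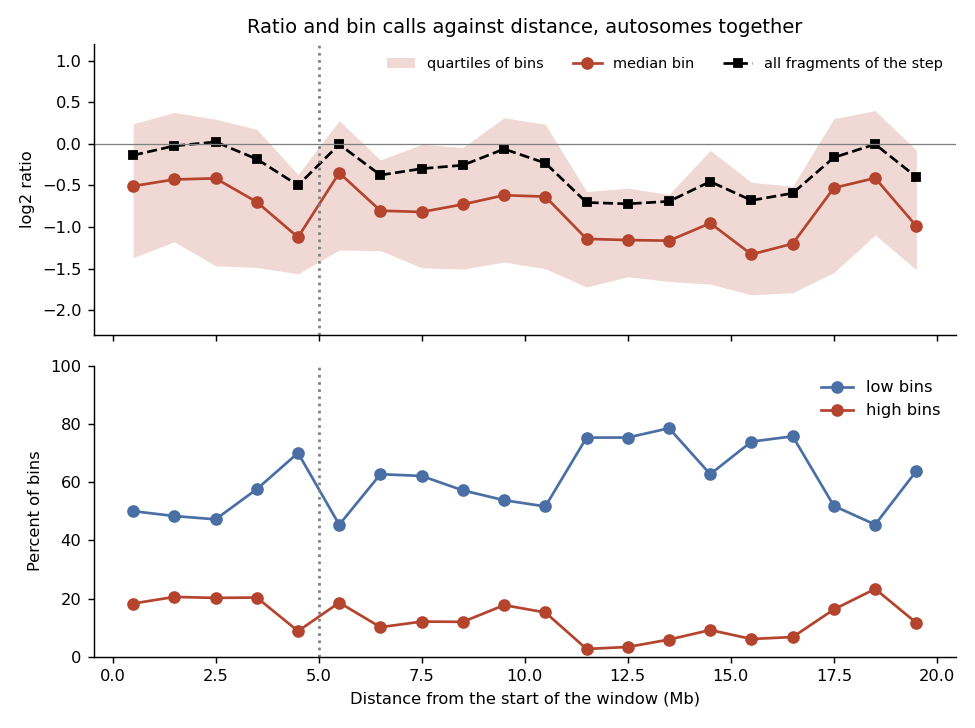
Upper panel, log2 ratio (y axis) in 1 Mb steps of distance from the start of the window (x axis, Mb), as the median bin with quartiles and as all fragments of the step; lower panel, percent of bins called low and high. Left of the dotted line at 5 Mb are the bins described here, of which the fifth Mb has 70.0% low bins, and low bins reach 78.5% further along, at 13 to 14 Mb.

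The peaks that the authors called were, like the ratio, fewest on chromosome 3 and most frequent on chromosome 19, with a partly different order between them. Fragments in peaks also count in the ratio, so this is not independent of it. Whether the peaks were called on this hMeDIP library alone could not be settled from the sources used here. The 864 bins held 2556 peaks by midpoint, or 29.6 per Mb, against 39.8 per Mb in the rest, a density 0.744 (0.715 to 0.773) of that of the rest. Among the 46328 peaks of the list with a score at or above the median that value was 0.741. Density ran from 1.80 per Mb on chromosome 3 (9 peaks) to 110.6 on chromosome 19 (520 peaks), against 29.1 and 52.0 per Mb in the rests of these chromosomes. It was below the rest of the chromosome on 14 of 18, the exceptions being chromosomes 2, 11, 17 and 19.

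**Figure D4:**
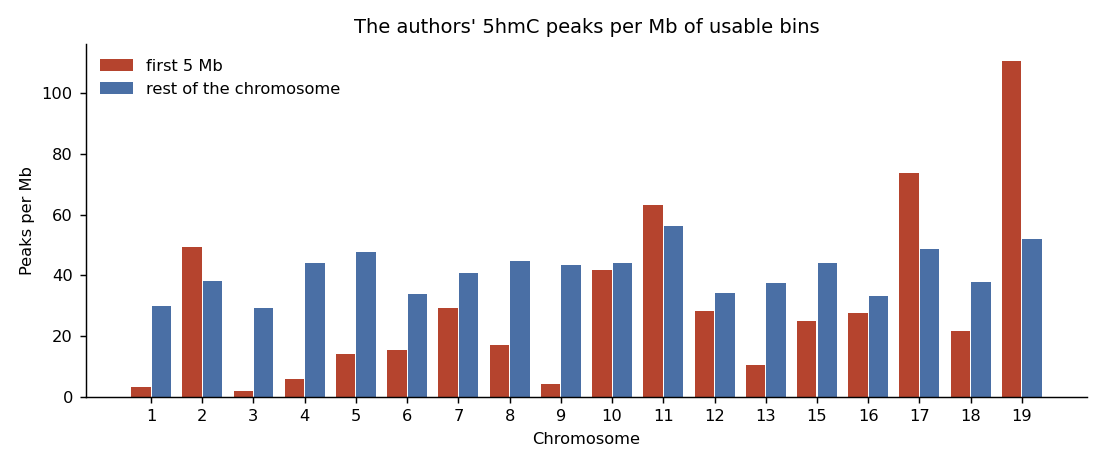
Peaks per Mb of usable bins (y axis) in the first 5 Mb (red) and the rest of the chromosome (blue) for 18 autosomes. Chromosome 3 has 1.80 and chromosome 19 110.6 peaks per Mb in the first 5 Mb, against 29.1 and 52.0 in their rests.

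Single peaks in the first 5 Mb resembled those elsewhere in width and fold. All of them had first passed the authors' peak calling, so their fold is not independent of that selection. Their median width was 1117 bp, against 1154 bp in the rest, and their median fold over input was 4.37 in both after adding 1 fragment to each library. Together they had a ratio of 5.28 (5.18 to 5.38), against 5.27 (5.26 to 5.29) for the peaks of the rest. Of the 2556 peaks, 14 (0.548%) were 5 kb or wider, against 0.610% in the rest. Outside peaks the first 5 Mb had a ratio of 0.705 (0.701 to 0.709), against 0.768 (0.767 to 0.769) in the rest. Both are over the totals of all fragments, so 1 is not the average for this pair of values.

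The peaks were unevenly spread over the bins. The 153 high bins held 1834 peaks (71.8%), a mean of 12.0, while the 471 low bins held 99, a mean of 0.210. Bin calls count the fragments in peaks, so this split is not independent of the calls. The matching split over all autosomal bins is not given here. Of the 864 bins, 430 (49.8%) held no peak midpoint, against 43.8% in the rest. Chromosome 9 had no peak until 7518785, 4519 kb into the span, and all 21 of its peaks in this span lay in the fifth Mb. On chromosome 3 no peak midpoint lay between 3197976 and 5574269, a gap of 2.38 Mb.

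The 5 peaks with the highest scores, the authors' own ranking within their list, lay on 4 chromosomes. The first was at chromosome 17, 6951164 to 6959782, with a score of 1550.01. It held 308 hMeDIP against 28 input fragments, 8.01 times (5.43 to 12.3) the share of the input. At 8619 bp it was also the widest of the first 5 Mb, and by score it ranked 44 in the whole list. The second, at chromosome 15, 7099430 to 7106006, had 290 hMeDIP against 20 input fragments, was enriched 10.6 times (6.71 to 17.5) and was 6577 bp wide, with only 2 wider peaks in the span. The third stood next to the first, at chromosome 17, 6960249 to 6964753, and was enriched 11.1 times (6.37 to 21.3).

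The fourth was at chromosome 19, 5828543 to 5833151, and was enriched 8.01 times (5.17 to 13.0). On chromosome 16 the fifth, 4647009 to 4650530, was enriched 15.3 times (7.88 to 34.0), from 189 hMeDIP against 9 input fragments. The second widest peak, at chromosome 17, 5202103 to 5208777, was 6675 bp and lay in the high run of that chromosome, enriched 8.98 times (5.55 to 15.4). All of these peaks lay in high bins.

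Of the 5 highest bins, 3 were on chromosome 17. The top one, 5000001 to 5100000, held 2741 hMeDIP and 384 input fragments and stood at 2.38 (2.22 to 2.54), with 37 peaks that covered 75019 bp of it. It ranked 15 from the top among all 23419 autosomal bins. The second, 6900001 to 7000000, stood at 2.19 (2.01 to 2.39) and holds both of the top chromosome 17 peaks. The third, 5200001 to 5300000, stood at 2.07 (1.91 to 2.22). The fourth, chromosome 19, 7100001 to 7200000, stood at 2.03 (1.85 to 2.21), and the fifth, on chromosome 12 from 3800001 to 3900000, was at 1.96 (1.80 to 2.13), where 30 peaks lay.

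The lowest bins included chromosome ends. On chromosome 3 the bin 3000001 to 3100000 had 74 hMeDIP against 392 input fragments and stood at -2.86 (-3.24 to -2.502), which ranked 4 from the bottom among all autosomal bins. Chromosome 16, 3200001 to 3300000, had 98 hMeDIP against 496 input fragments, stood at -2.80 (-3.13 to -2.48) and ranked 6. Chromosome 17, 3000001 to 3100000, had 121 hMeDIP against 515 input fragments and stood at -2.55 (-2.85 to -2.26). These 3 bins were each the first usable one of their chromosome, and their input counts were above the median of 325 for the first 5 Mb. The part of this higher input in their low ratios was not tested. The other 2 were chromosome 9, 6700001 to 6800000, at -2.51 (-3.06 to -2.001) with 162 input fragments, and chromosome 1, 3800001 to 3900000, at -2.49 (-2.92 to -2.08). None of the 5 held a peak midpoint.

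The first usable bin of the 18 chromosomes was low on 11, high on 1 and neither on 6, against 47.9% low and 22.9% high over all autosomal bins. Low bins were thus the majority among them, at a somewhat larger share than in the background. The high one was chromosome 2, 3000001 to 3100000, where 1195 hMeDIP stood against 371 input fragments, at 1.23 (1.06 to 1.40) on the log2 scale with 15 peaks. In 10 kb steps its ratio was highest at 3060001 to 3070000, at a log2 value of 2.22, from 217 hMeDIP against 34 input fragments. On chromosome 3 the first 4 such steps had 10, 15, 11 and 7 hMeDIP fragments, against 85, 66, 87 and 58 input fragments. The median input of such a step on the autosomes was 36 fragments.

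Both libraries piled up at some chromosome starts. In the first 5 Mb, 14 steps of 10 kb held over 5 times the median input of 36 fragments, on chromosomes 4, 9, 11 and 18, and all lay in the first 200 kb. They held 8813 hMeDIP and 11011 input fragments. These were 3.89% of the input fragments of the 864 bins. On chromosome 11 the bin 3000001 to 3100000 alone had 5128 hMeDIP against 8342 input fragments, the most of any bin in the span, and stood at -1.16 (-1.21 to -1.11). Chromosome 9, 3000001 to 3100000, had 2967 hMeDIP against 2183 input fragments and stood at -0.02 (-0.10 to 0.07), and 2960 hMeDIP against 2138 input fragments lay in its first 40 kb.

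**Figure D5:**
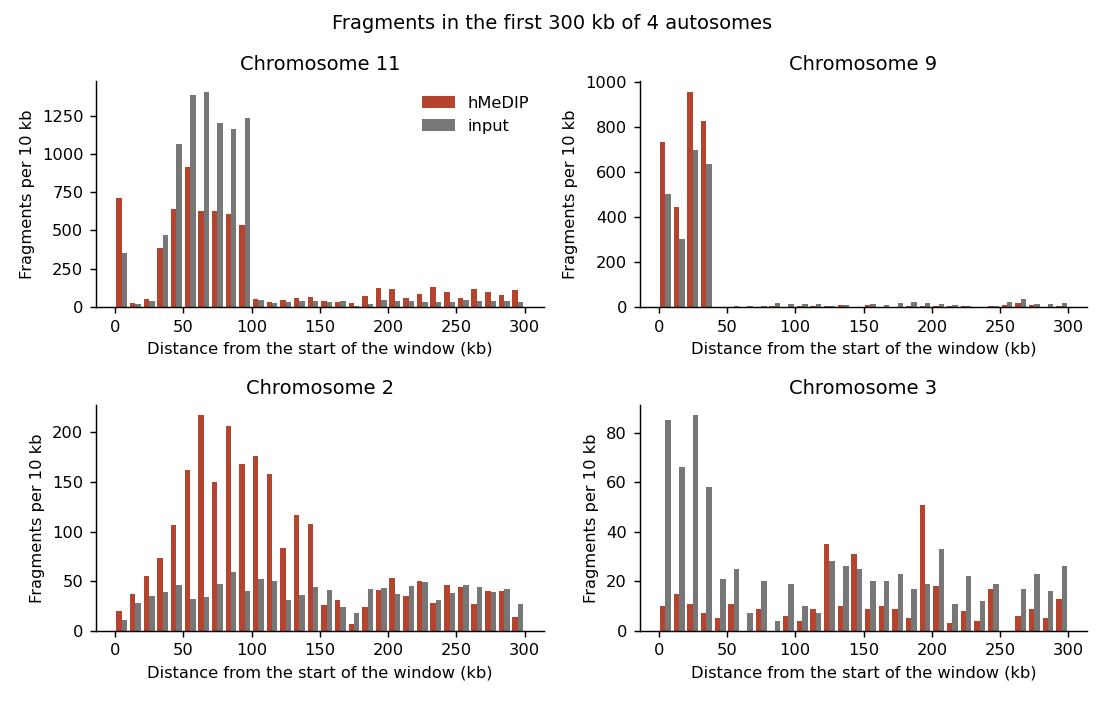
Fragments per 10 kb (y axis) of the hMeDIP library (red) and the input library (grey) by distance from the start of the window (x axis, kb) on chromosomes 11, 9, 2 and 3. On chromosome 11 the input reaches 1405 fragments per step and exceeds hMeDIP from 30 to 100 kb, on chromosome 2 hMeDIP reaches 217 with no rise of the input, and on chromosome 3 the input exceeds hMeDIP in the first 4 steps.

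Some chromosomes with such piles gave other values when these steps were left out or weighted. Without 10 kb steps of extreme or no input the difference of chromosome 11 from its rest turned to 0.19, against -0.18 with them, so that 12 of 18 chromosomes were lower. That of chromosome 9 became -1.21, against -0.996, while chromosome 18 stayed at -0.20 and chromosome 4 became -0.98, against -0.93. This setting also drops steps with no input, and the part of the piles was not tested. On chromosome 9, where weighting by reads ended the difference beyond 0.5, up to 112 hMeDIP and 37 input reads shared a position in its first 40 kb. On chromosome 4 the first peak, 3016479 to 3018465, lay in such a step and held 596 hMeDIP against 276 input fragments, enriched 1.57 times (1.36 to 1.82).

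Coverage limits the account. In the first 5 Mb, 9.05% of bins were under the input minimum, against 2.83% in the rest of the autosomes. All 50 bins of chromosome 14 were among these 86, with 78 hMeDIP and 81 input fragments in all and at most 13 input fragments per bin. The first usable bin of chromosome 14 was 8500001 to 8600000. The next most affected were chromosomes 7 and 17, with 39 and 41 usable bins. The 86 bins together held 603 hMeDIP against 579 input fragments, for a ratio of 0.758 (0.675 to 0.851), and 3 peaks. Just inside the minimum, chromosome 13, 3200001 to 3300000, had 50 input fragments and stood at -1.71 (-2.52 to -0.95), and just outside it chromosome 13, 3100001 to 3200000, had 44 and -0.96 (-1.68 to -0.27).

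Input depth moved with the ratio. The median bin of the first 5 Mb had 291.5 hMeDIP and 325 input fragments, against 377 hMeDIP and 356 input fragments in the rest. Spearman's rho between log2 ratio and input count was 0.41 over the 864 bins and 0.35 over the others, and Pearson's r was 0.078 and 0.34. The part of input depth in the results was not tested, nor that of CpG density, for which no mm9 sequence was used here. With at least 200 input fragments per bin, the ratio of the first 5 Mb was 0.915 and 13 of 18 chromosomes stayed below their rest.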

How the data were processed

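Genomic DNA of 1 hMeDIP library and 1 input library was compared. Bowtie 1.0.0, CASAVA and build mm9 are listed in the submitters' processing notes, alignment settings being not given in the sources used here. As deposited by the authors, each library's file lists 350 bp positions with a strand and a read count, read here as 1 fragment per line. Per the file headers, the authors' peaks come from MACS, with a score per peak; its control, its threshold and whether this library alone was used are likewise unstated in those sources. Fragments and peaks were placed by midpoint with numpy 2.4.6 and pandas 2.3.3. Intervals of ratios are exact conditional binomial (Clopper-Pearson, scipy 1.17.1), and those of differences come from the log odds ratio. The last 5 Mb end at the highest bin with a fragment, and 5 Mb windows needed 25 usable bins. Calls of bins were tested on simulated counts with known ratios and counting error only. That is the error the intervals assume, so other error, such as piled-up fragments, was not covered. Named regions are all chromosomes, the 5 highest and 5 lowest bins, the first usable bins, the 5 peaks of highest score and the 3 widest. The members and lists were chosen with earlier results of these data known. No sequence is shown, since no mm9 genome was used. Alternatives were other scalings, read weighting, peak and input filters, window and bin sizes.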

Additional observations from a re-analysis of the deposited data

Results flagged for a closer look

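The number of reads per position entered the comparisons above only as an alternative weighting. A position with 2 or more reads was more frequent in hMeDIP than in input, which is why it is listed. In the first 5 Mb such positions were 2.08% (2.03 to 2.13) of hMeDIP and 0.973% (0.937 to 1.01) of input positions. In the rest of the autosomes these shares were 1.30% in hMeDIP and 0.312% in input. In the 14 crowded steps of 10 kb at the starts of chromosomes 4, 9, 11 and 18 they were 33.4% (32.4 to 34.4) of hMeDIP and 16.9% (16.2 to 17.6) of input positions. Outside these steps the first 5 Mb had 1.28% in hMeDIP and 0.329% in input. In total the hMeDIP library had 11634110 reads and the input library 8368122. The part of this depth, or of the enrichment, in these shares was not tested.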

How the results depend on the processing

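No paired analysis was possible because each group has 1 library. The median-based summary, the missing input minimum, the 150 bp fragments and the comparison with 10 to 15 Mb were chosen after seeing the data. The ratio of the first 5 Mb (0.903) became 1.19 when scaled to the fragments outside peaks, which adds 0.40 to every log2 ratio and leaves differences between regions as they are. It was 0.915 without 10 kb steps of extreme or no input, 0.931 weighted by reads and 0.915 with at least 200 input fragments per bin. Other values were 0.914 without the first 200 kb, 0.969 for a 3 Mb window, 0.888 for a 10 Mb window and 0.654 as the median bin. Without fragments in peaks it was 0.705, but the library totals were left unchanged there. That setting lowers ratios everywhere, to 0.768 in the rest of the autosomes, so the fall itself is built in. The median difference from the rest of the chromosome (-0.19) was -0.17 weighted by reads, -0.066 without fragments in peaks, -0.16 for a 10 Mb window and 0.029 between median bins, where 7 chromosomes were lower. High bins (17.7%) were 27.7% scaled outside peaks, 28.5% centred on the median bin and 7.52% at a threshold of 1. Over all autosomal bins (22.9%) these shares were 35.4%, 35.9% and 10.2%. Without fragments in peaks high bins were 5.56%, with the same unchanged totals, and the matching autosomal share is not given here. Low bins (54.5%) were 42.6% scaled outside peaks, 42.4% centred on the median bin and 39.2% at a threshold of 1. Over all autosomal bins (47.9%) these shares were 37.7%, 37.3% and 35.1%. Low bins stayed within 1.5 times their share in every alternative run. Peak density over the rest (0.744) was 0.847 for 3 Mb, 0.705 for 10 Mb and 0.709 with no input minimum. The first minus the fifth Mb (0.36) was 0.48 without extreme steps, 0.57 weighted by reads, 0.33 without fragments in peaks, 0.40 with at least 200 input fragments, 0.47 without the first 200 kb and 0.61 between median bins. The first 5 Mb minus the bins at 10 to 15 Mb (0.40) was 0.42 without extreme steps, 0.45 weighted by reads, 0.27 without fragments in peaks and 0.42 without the first 200 kb. Leaving out the first 200 kb also turned chromosome 10 (to -0.01) and chromosome 11 (to 0.20). Of 40 values of the 10 named bins under 4 alternatives, 27 stayed in their interval, 13 moved and 0 reversed. This tally is partly fixed in advance. The 10 values without extreme steps, and 5 of those without fragments in peaks, equal the main values, as nothing was removed from those bins. Scaling outside peaks adds the same amount to every bin. The cause of these shifts was not tested.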
